A study of Mus musculus with 18 samples.

Results

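The ADAM genes encode membrane-anchored proteins that pair a metalloprotease domain with a disintegrin domain, and the mouse testis is known for the number of them it uses. The members described here are the 32 rows, of 20985 in the deposited table, whose symbol is Adam followed by a number and at most 1 letter, a or b, with Adam7 left out. All values were measured by RNA sequencing of frozen testis from ICR mice, an outbred stock, sampled at 10 weeks of age in 6 groups of 3 libraries. Mice of 4 groups were on a high-fat diet: HFD-AOSFMT also had FMT labelled with AOS at 10 mg/kg, HFD-conFMT had FMT labelled control, HFD-AOS had AOS at 10 mg/kg, and HFD had the diet alone. The AOS group had 10 mg/kg without that diet, and the last group is labelled control. By its design text the series asks what FMT does in a testis damaged by the diet. The abbreviations AOS and FMT are kept in the labels' form because no source spells them out, and the FMT donors, the make-up of the diet and the length of treatment are likewise unstated. Nothing in the labels ties the 3 libraries of a group to different animals, and a p-value therefore rests on a spread between libraries that may be partly technical.

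As background, a newly made ADAM carries a prodomain that keeps the protease shut until it is cut away, and the active site of the proteolytic members holds a zinc ion through 3 histidines beside a glutamate. Some members with this site shed the outer parts of membrane proteins such as growth factors, cytokines, cadherins and Notch receptors, while some that lost it act in adhesion. Male germ cells make a large set of ADAMs that mature in the endoplasmic reticulum with dedicated chaperones, form complexes on the sperm head and, in mice, are needed for sperm to enter the oviduct.

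Of the 27 members that could be tested, 0 were called in any comparison made below, and their coefficients of variation over the 18 libraries ran between 2.71% and 14.6%. The family was carried by genes of the sperm surface, with Adam5, Adam3 and Adam32 far above the rest, whereas the widely expressed sheddases Adam10, Adam17, Adam9 and Adam15 were each at a few FPKM. FPKM are fragments counted per length of transcript and per size of library, so levels can be set against each other between genes; the deposited table names no unit, and this one was inferred from its values. A gene was tested where its mean over the 18 libraries was at least 1 FPKM, which 27 of 32 members and 13105 genes in all reached. The other 5 members, Adam23, Adam19, Adam33, Adam12 and Adam28, were under that mean. A difference was called where the Benjamini-Hochberg adjusted p of limma, a linear model fitted across all 13105 genes on log2(FPKM + 1), was under 0.05.

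Libraries summed to 588080.8 to 637004.9 FPKM, and 12996 to 13221 genes reached 1 FPKM in each, while the number of reads behind them is not known. Markers of spermatocytes, round and elongating spermatids, Sertoli cells and Leydig cells were present in all 18 libraries, as the label testis calls for. Summed epididymal markers ran from 2.21 to 203 FPKM, with 203 FPKM in control replicate 3 and 134 in HFD-conFMT replicate 2, which stood apart from the rest. The 5 elongating spermatid markers, which include the protamines, summed to 49100 to 51500 FPKM in HFD-AOSFMT, 52300 to 56600 in HFD-conFMT, 50700 to 58300 in HFD-AOS, 38600 to 51400 in HFD, 52100 to 53700 in AOS, and 41300 to 47200 FPKM in control. Values of FPKM are scaled to the size of a library, so a change in these abundant transcripts can shift other genes' values, which was not tested. In bulk testis RNA, fewer cells of a type and less RNA per cell cannot be told apart.

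The sperm surface ADAMs were the most abundant group by a wide margin, all 10 being past the filter, at means of 25.9 to 551 FPKM. Summed over these 10 genes the libraries held 1710 to 1910 FPKM, of 1960 to 2210 FPKM for the 32 members together. The whole family took 0.318 to 0.375% of the summed FPKM of a library. The 6 genes of the testase cluster, named for testis-specific proteases, summed to 131 to 165 FPKM, and the 4 other testis ADAMs, Adam20, Adam21, Adam29 and Adam30, to 84.2 to 99.2 FPKM. Adam20 was listed apart from the testase cluster although its gene lies between Adam25 and Adam39 of that cluster. All 9 sheddases and other proteolytic ADAMs together came to 21.2 to 25.9 FPKM, and the 3 adhesion ADAMs of nerve cells to 7.61 to 9.47 FPKM.

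**Figure D1:**
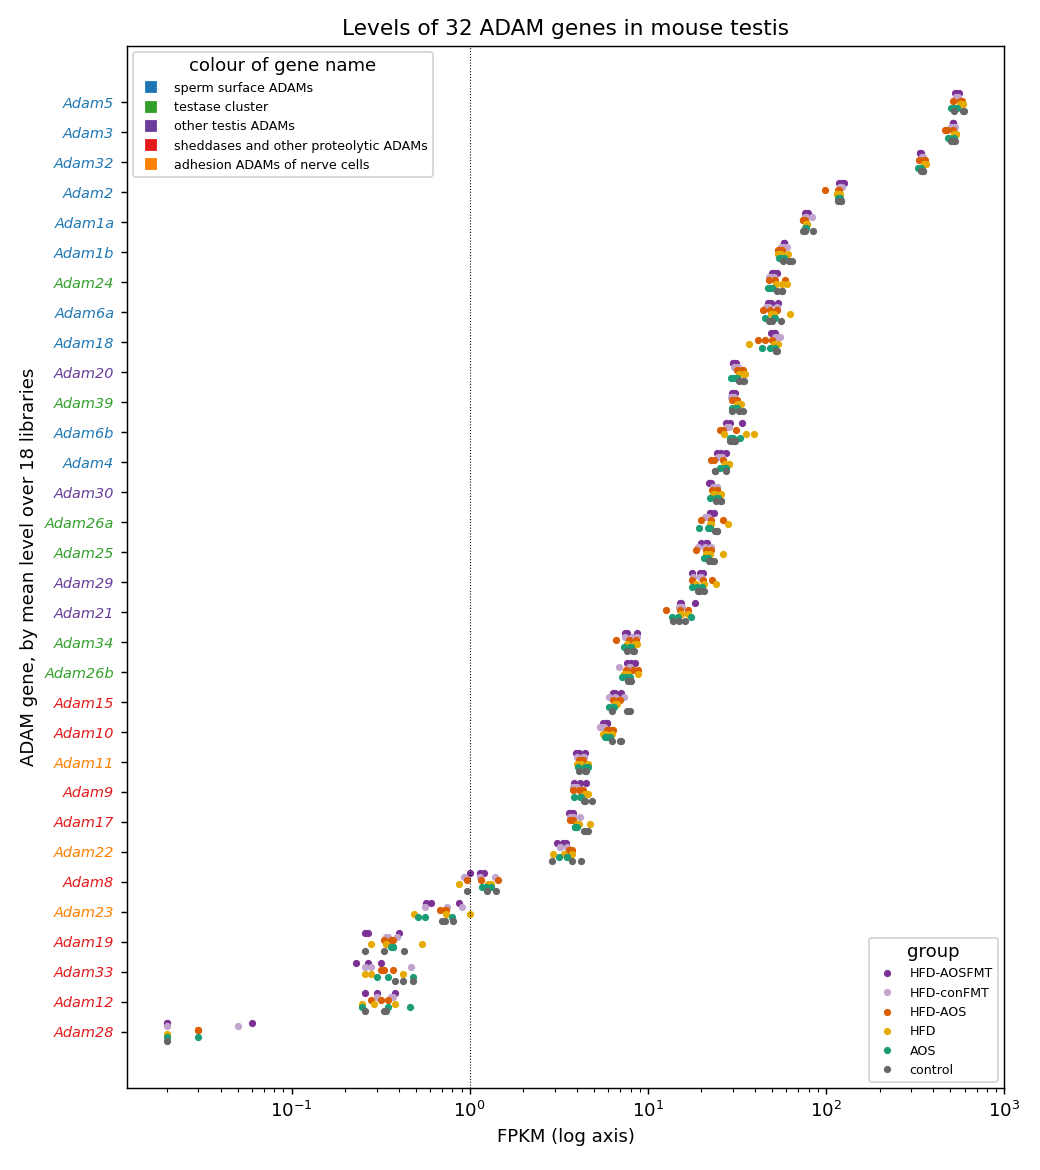
Level of each of the 32 ADAM genes in FPKM on a log axis (x) for the 18 libraries, with genes ordered by mean level (y), points coloured by group, gene names coloured by role, and a dotted line at the filter of 1 FPKM. Adam5 and Adam3 have means of 551 and 512 FPKM, 18 genes have a mean of at least 10 FPKM, and the points of the 6 groups overlie each other in nearly every row; values of 0, which Adam28 has in 7 libraries, cannot be drawn on a log axis.

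In the longest coding sequence of each gene in GENCODE vM21, 20 of 32 members held the zinc-binding consensus with all 3 histidine codons and the glutamate codon. The 4 members of highest level, Adam5, Adam3, Adam32 and Adam2, and also Adam18, kept 0 of these 4 codons at the aligned place. Adam1a, Adam1b and all 6 genes of the testase cluster kept 4 of 4. The 33 coding bases of this site are shown for members on both sides of the divide, 5′ to 3′ on the coding strand, with capitals marking the histidine and glutamate codons that match the consensus.
Adam10 (sheddase): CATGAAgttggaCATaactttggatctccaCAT
Adam17 (sheddase): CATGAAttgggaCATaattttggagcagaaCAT
Adam15 (proteolytic): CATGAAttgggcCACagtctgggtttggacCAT
Adam1a (sperm surface): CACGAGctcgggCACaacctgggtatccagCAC
Adam1b (sperm surface): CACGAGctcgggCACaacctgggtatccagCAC
Adam20 (testis): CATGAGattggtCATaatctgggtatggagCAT
Adam25 (testase cluster): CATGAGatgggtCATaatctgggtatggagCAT
Adam29 (testis): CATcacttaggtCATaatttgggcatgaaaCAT
Adam22 (adhesion): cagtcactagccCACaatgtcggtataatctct
Adam6a (sperm surface): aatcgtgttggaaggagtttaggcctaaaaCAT
Adam6b (sperm surface): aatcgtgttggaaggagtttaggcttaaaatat
The stretches of Adam1a and Adam1b are the same, those of Adam20 and Adam25 differ within a single codon that is not capitalised, and Adam29 lacks the glutamate codon while its 3 histidine codons are kept. Adam6a keeps 1 of the 4 codons and Adam6b none, and Adam22 keeps 1.

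The positions of the genes, on GRCm38, the assembly also called mm10, put many of these genes side by side. On chromosome 8, Adam18, Adam3, Adam5, Adam32 and the proteolytic Adam9 follow each other on the minus strand between 24602246 and 25016927. Further along chromosome 8, Adam24, Adam25, Adam20 and Adam39 lie on the plus strand between 40675077 and 40827037, and Adam26b, Adam26a and Adam34 on the minus strand between 43519762 and 43710049. Adam1b and Adam1a are neighbours on chromosome 5 between 121500098 and 121545482, and Adam6b and Adam6a lie on chromosome 12 between 113489511 and 113546465, in the region of the immunoglobulin heavy chain genes. Adam2 is on chromosome 14 (66027329 to 66077733), Adam30 on chromosome 3 (98160630 to 98164169), Adam10 on chromosome 9 (70678997 to 70780229), and Adam4 and Adam17 on chromosome 12 (81419443 to 81421946 and 21323509 to 21373632). Adam9, the last gene of the first run on chromosome 8, was at a mean of 4.21 FPKM beside Adam32 at 346 and Adam5 at 551 FPKM.

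Several of these neighbours are near-identical copies, so the split of reads between them is uncertain. Adam1a and Adam1b share 1205 coding bases at 99.7% identity, Adam25 and Adam39 match at 95.7%, Adam20 and Adam25 at 92.6%, Adam26a and Adam26b at 96.1%, Adam6a and Adam6b at 94.9%, and Adam4 matches the predicted gene Gm5746 at 91.7%. Adam34 matches the predicted genes Gm5347 at 95.1% and Gm5346 at 93.7%, and both Adam26a and Adam26b at 90.8%. Exons of Adam1a overlap those of Gm42878 and Mapkapk5 on the same strand and Tmem116 on the other, and exons of Adam17 and Adam15 overlap Iah1 and 4731419I09Rik on the opposite strand. The strand setting of the counting is not given in the sources used here, so reads of such overlaps cannot be told apart.

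RefSeq start sites on GRCm38.p6 were held for 17 of the 32 members, in 19 windows. Only 4 of these windows belong to sperm surface members, and Adam5, Adam3, Adam32, Adam2 and Adam18 have none. The windows of Adam1a and Adam34 and 1 of Adam19 lie within the GENCODE spans of those genes, and that of Adam6b lies partly within its span. CG pairs were counted over the 250 bases before the start. Adam10 had 29 CG pairs there, a count that 6.8% of the 32851 windows of the table reach, and Adam17 had 23, which 13.3% of windows reach. All windows together had a median of 6. Adam15 had 18, Adam22 17 and Adam23 27, while Adam8 had 6 and the 3 windows of Adam19 between 4 and 7. Adam1a had 4 CG pairs, Adam20, Adam25, Adam29, Adam1b and Adam6a had 1 each, and Adam21, Adam26b, Adam34 and Adam6b had 0. The windows of the 2 sheddases and of a near-identical testis pair are printed 5′ to 3′ on the gene's strand, with every CG in capitals.
Adam10, chr9:70678732-70678981, strand +: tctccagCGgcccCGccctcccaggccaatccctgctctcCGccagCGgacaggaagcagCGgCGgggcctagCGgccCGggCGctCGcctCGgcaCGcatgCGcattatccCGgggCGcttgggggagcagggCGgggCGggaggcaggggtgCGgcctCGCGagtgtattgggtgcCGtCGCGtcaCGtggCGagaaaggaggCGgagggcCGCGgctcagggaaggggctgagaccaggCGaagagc
Adam17, chr12:21373633-21373882, strand -: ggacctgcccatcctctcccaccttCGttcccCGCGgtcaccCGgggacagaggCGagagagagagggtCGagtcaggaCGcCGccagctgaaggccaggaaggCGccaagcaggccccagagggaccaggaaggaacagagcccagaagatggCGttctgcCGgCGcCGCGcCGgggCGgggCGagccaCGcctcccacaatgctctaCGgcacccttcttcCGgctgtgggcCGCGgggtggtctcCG
Adam20, chr8:40793023-40793272, strand +: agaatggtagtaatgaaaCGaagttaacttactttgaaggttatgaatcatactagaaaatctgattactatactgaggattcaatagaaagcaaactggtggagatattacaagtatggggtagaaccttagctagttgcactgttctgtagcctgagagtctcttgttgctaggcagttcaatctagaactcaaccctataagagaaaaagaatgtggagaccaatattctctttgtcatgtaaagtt
Adam25, chr8:40751958-40752207, strand +: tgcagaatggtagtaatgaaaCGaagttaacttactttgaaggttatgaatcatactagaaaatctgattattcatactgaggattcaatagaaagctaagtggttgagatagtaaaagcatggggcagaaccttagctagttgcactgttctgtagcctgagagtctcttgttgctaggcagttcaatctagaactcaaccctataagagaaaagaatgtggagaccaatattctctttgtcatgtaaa
The windows of Adam20 and Adam25 match over 246 bases at 96.7% identity, and those of Adam6a and Adam6b over 149 bases at 100%. That stretch of 149 bases ends the window of Adam6a and opens that of Adam6b. These windows are therefore offset, and their bases outside the stretch were not aligned. The next pair by alignment score, Adam25 and Adam26b, matches over 90 bases at 66.7%. The 5 letters TGACG, the core of the cyclic AMP response element, were looked for on both strands. They were in 1 of the 19 windows, that of Adam10, against 17.8% of all windows. These letters include a CG pair, so the windows of Adam21, Adam26b, Adam34 and Adam6b, with 0 CG pairs, could not hold them. The share is therefore not separate from the CG counts above.

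By level, Adam5, a sperm surface ADAM, came first. It was at 557, 537 and 528 FPKM in HFD-AOSFMT, 550.0, 535 and 540.1 in HFD-conFMT, 577, 562 and 513 in HFD-AOS, 564, 589 and 575 in HFD, 506, 546 and 520.0 in AOS, and 588, 598 and 524 FPKM in control. Its highest value was in control replicate 2 and its lowest in AOS replicate 1, and the ranges of all 6 groups overlap at least 1 other group's. Adam3, also called cyritestin and needed in mice for sperm to pass into the oviduct, was at 519, 518 and 518 FPKM in HFD-AOSFMT, 525, 528 and 505 in HFD-conFMT, 464, 519 and 478 in HFD-AOS, 523, 535 and 537 in HFD, 484, 523 and 489 in AOS, and 518, 529 and 504 FPKM in control. The HFD libraries all lay above the 3 HFD-AOS libraries, of which replicate 1 was the lowest of all 18. Over the 18 libraries the ranges of Adam5 and Adam3 overlap, so their order is not fixed, whereas every Adam3 value is above every value of Adam32, the next gene.

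Adam32, a testis-specific member, was the steadiest of the tested members, with a coefficient of variation of 2.71% over the 18 libraries. Its values were 339.8, 337 and 338 FPKM in HFD-AOSFMT, 344, 353 and 345 in HFD-conFMT, 355, 362 and 334 in HFD-AOS, 362, 354 and 353 in HFD, 336, 344 and 329.8 in AOS, and 348, 350.5 and 340.3 FPKM in control. Adam2, the beta subunit of fertilin on which the surface display of other sperm ADAMs depends, was at 127, 124 and 118 FPKM in HFD-AOSFMT, 119, 122 and 119.8 in HFD-conFMT, 99.1, 118 and 116 in HFD-AOS, 115, 119.7 and 116 in HFD, 119, 118 and 117 in AOS, and 118, 121 and 122 FPKM in control. Replicate 1 of HFD-AOS was the lowest Adam2 library, and the other 17 lay between 115 and 127 FPKM. Neither Adam32 nor Adam2 overlaps its neighbours in the order of levels.

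Adam1a, which pairs with Adam2 in the endoplasmic reticulum, was at 79.01, 76.1 and 77.4 FPKM in HFD-AOSFMT, 76.8, 76.1 and 83.8 in HFD-conFMT, 74.5, 76.7 and 74.3 in HFD-AOS, 78.01, 78.7 and 76.8 in HFD, 77.7, 76.3 and 77.1 in AOS, and 73.9, 76.2 and 84.8 FPKM in control. Adam1b, which pairs with Adam2 on the sperm surface, was at 58.2, 57.9 and 58.3 FPKM in HFD-AOSFMT, 57.6, 60.4 and 56.1 in HFD-conFMT, 53.8, 56.3 and 56.4 in HFD-AOS, 55.9, 53.9 and 61.2 in HFD, 54.5, 58.4 and 56.1 in AOS, and 61.8, 64.6 and 57.5 FPKM in control. Control replicate 3 was the highest Adam1a library and control replicate 2 the highest Adam1b library, and with 1205 shared bases these 2 genes cannot be cleanly separated. Adam6a, whose loss together with Adam6b lowers fertility in male mice, was at 49.3, 54.1 and 47.0 FPKM in HFD-AOSFMT, 47.6, 46.2 and 53.1 in HFD-conFMT, 48.3, 53.1 and 44.5 in HFD-AOS, 51.3, 62.7 and 48.8 in HFD, 45.8, 50.9 and 52.01 in AOS, and 47.9, 49.95 and 55.6 FPKM in control. HFD replicate 2 stood above the other 17 libraries, and it was also the highest library for Adam6b, at 39.5 FPKM against 25.5 to 35.7 FPKM in the other 17.

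From Adam1b downward the order of levels is loose, since the 18-library ranges of neighbours overlap for Adam1b, Adam24, Adam6a and Adam18 and again from Adam20 through Adam21. The 5 members under 1 FPKM had means of 0.709 for Adam23, 0.353 for Adam19, 0.346 for Adam33, 0.324 for Adam12 and 0.0178 FPKM for Adam28. Adam33, a protease of mesenchymal cells, averaged 0.273 ± 0.0451 FPKM in HFD-AOSFMT, 0.337 ± 0.116 in HFD-conFMT, 0.340 ± 0.0265 in HFD-AOS, 0.320 ± 0.0872 in HFD, 0.377 ± 0.0929 in AOS, and 0.427 ± 0.0503 FPKM in control (SD, n = 3 each). Adam23 ranged over libraries between 0.49 and 1.0 FPKM, Adam19 between 0.26 and 0.54, and Adam12 between 0.25 and 0.46 FPKM. Among the 27 tested members the coefficient of variation had a median of 7.26% and was highest for Adam8 at 14.6%, against a median of 8.67% over all genes tested. For genes of at least 5 FPKM the medians were 7.01% over 22 members and 7.07% over all such genes.

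The comparison of HFD with control asks what the diet alone did. Of the 27 members, 0 were called by limma, as for all genes (percent called 0), the lowest adjusted p being 0.651, and 2 had an unadjusted p under 0.05, against 6.75% of all genes. Of these 2, Adam10 had a lower estimate in HFD (3.84% of all genes passed with one) and Adam4 a higher estimate (2.91%). Estimates were below 0 for 12 of 27 members, where 54.8% of all genes were below 0, and 19 were below 0 without HFD replicate 2; the median log2 fold change was 0.011 over members and -0.011 over all genes, and the members' median was -0.023 without HFD replicate 2, -0.017 without control replicate 1 and -0.003 without HFD replicate 1. Adam32 was the 1 member whose HFD and control values did not overlap, being higher in HFD, as were 5.17% of all genes, and 0 members lay wholly lower in HFD, against 7.35% of all genes. The largest estimates lay between -0.17 for Adam18 and 0.16 for Adam4.

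Adam10, the sheddase that cuts Notch receptors and cadherins, was one of the 2 members of smallest p between HFD and control. Its values were 5.63, 5.92 and 5.89 FPKM in HFD-AOSFMT, 5.39, 5.68 and 5.37 in HFD-conFMT, 6.41, 6.11 and 5.92 in HFD-AOS, 5.63, 6.31 and 5.85 in HFD, 5.90, 6.12 and 5.75 in AOS, and 6.28, 7.08 and 6.94 FPKM in control. Control replicates 2 and 3 were the 2 highest of the 18 libraries, and HFD replicate 2 overlapped control replicate 1. The mean was 5.93 ± 0.347 FPKM in HFD and 6.77 ± 0.427 in control (SD, n = 3 each), a log2 fold change of -0.16 with a standard error of 0.0554, and the difference was not called (limma, adjusted p = 0.651). Adam4, a sperm surface ADAM whose site keeps the 3 histidine codons, was the other, at 27.3, 25.7 and 24.5 FPKM in HFD-AOSFMT, 24.8, 25.2 and 26.03 in HFD-conFMT, 23.6, 26.5 and 22.7 in HFD-AOS, 28.7, 28.6 and 27.02 in HFD, 25.5, 27.1 and 27.4 in AOS, and 23.8, 23.9 and 27.4 FPKM in control. HFD held the 2 highest libraries, but control replicate 3 lay within the HFD range. Adam4 averaged 28.1 ± 0.94 FPKM in HFD and 25 ± 2.02 in control, a log2 fold change of 0.16 with a standard error of 0.063 (limma, adjusted p = 0.691), and its reads may be shared with Gm5746.

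AOS was compared with control to see what it did without the diet. Again 0 members were called, against 0.0229% of all genes, and the lowest adjusted p was 0.172. At an unadjusted p under 0.05 there were 7 members, all with lower estimates in AOS, where 15.8% of all genes passed 10.2% with a lower and 5.58% with a higher estimate. Estimates were below 0 for 22 of 27 members and for 59.8% of all genes, with medians of -0.061 and -0.029 on the log2 scale. The AOS values lay wholly below the control values for 8 members, Adam10, Adam17, Adam9, Adam18, Adam20, Adam24, Adam25 and Adam26a, as they did for 15.2% of all genes, and wholly above for 0 members, against 7.96%. Without AOS replicate 1 the members' median was -0.038.

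The 2 members of smallest p were Adam20 and Adam10. Adam20, a testis-specific member with an intact zinc site, was at 30.2, 31.3 and 30.2 FPKM in HFD-AOSFMT, 30.5, 31.6 and 32.2 in HFD-conFMT, 33.7, 34.4 and 31.5 in HFD-AOS, 34.7, 35.02 and 32.3 in HFD, 29.2, 30.4 and 31.7 in AOS, and 32.4, 34.2 and 34.6 FPKM in control. All 3 AOS libraries were below all 3 control libraries, though the gap between AOS replicate 3 and control replicate 1 was under 1 FPKM. Its mean was 30.4 ± 1.24 FPKM in AOS and 33.7 ± 1.16 in control, with a log2 fold change of -0.14, a standard error of 0.0468 and an adjusted p of 0.172 (limma). Adam10 averaged 5.92 ± 0.186 FPKM in AOS and 6.77 ± 0.427 in control, a log2 fold change of -0.16 with an adjusted p of 0.179 (limma). In the same comparison the spermatocyte markers had 4 of 5 estimates below 0 with a median of -0.098, and the Leydig markers 5 of 5 below 0 with a median of -0.403. The round spermatid markers had 2 of 5 below 0 with a median of 0.0. The elongating spermatid markers had 5 of 5 above 0 with a median of 0.27, and 0 markers of these lists were called. Their part in the lower ADAM estimates was not tested.

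HFD-AOS was set against HFD to see what AOS did on the diet. No member was called, 0 by limma against 0 of all genes, the lowest adjusted p being 0.245. There were 4 members at an unadjusted p under 0.05, all with lower estimates in HFD-AOS, against 12.7% of all genes in either direction 7.81% with lower and 4.89% with higher estimates. Estimates were below 0 for 22 of 27 members and 56.1% of all genes, with medians of -0.067 and -0.017. Values of HFD-AOS lay wholly below those of HFD for 6 members, Adam3, Adam1a, Adam4, Adam39, Adam17 and Adam9, against 8.49% of all genes, and wholly above for 0 members, against 4.9%. The members' median was -0.044 without HFD-AOS replicate 1 and -0.026 without HFD-AOS replicate 3. All 10 sperm surface members had estimates below 0, between -0.27 for Adam6b and -0.03, with a median of -0.071. So did 4 of 4 other testis ADAMs (median -0.047) and 5 of 6 of the testase cluster (median -0.09). Of the sheddases and other proteolytic ADAMs 2 of 5 were below 0, and of the adhesion ADAMs 1 of 2. In AOS over control, 4 of 5 sheddases and other proteolytic ADAMs were below 0 (median -0.162), beside 8 of 10 sperm surface members (median -0.043). Against HFD, 4 of 5 of the former were below 0 in HFD-conFMT (median -0.096) and in HFD-AOSFMT (median -0.024). Sperm surface members below 0 numbered 6 of 10 (median -0.037) and 7 of 10 (median -0.056) in that order.

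Adam4 averaged 24.3 ± 1.96 FPKM in HFD-AOS and 28.1 ± 0.94 in HFD, a log2 fold change of -0.21 with a standard error of 0.063 (limma, adjusted p = 0.245). Adam3 averaged 487 ± 28.5 FPKM in HFD-AOS and 532 ± 7.61 in HFD, a log2 fold change of -0.13 with a standard error of 0.0426 (limma, adjusted p = 0.27). Neither gene's groups overlapped, by less than 1 FPKM for Adam4 and by less than 5 FPKM for Adam3. In the same comparison spermatocyte markers had 4 of 5 estimates below 0 with a median of -0.096, and Leydig markers 4 of 5 below 0 with a median of -0.137. Round spermatid markers had 3 of 5 below 0 with a median of -0.009, and elongating spermatid markers 4 of 5 above 0 with a median of 0.189. Of these lists 0 markers were called, and their part in the ADAM estimates was not tested. The interval for Adam6b reached down to -0.51, while the 95% intervals of the other 26 members stayed within 0.5 of 0 in both directions on the log2(FPKM + 1) scale.

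Both FMT groups were compared with HFD and with each other. These 2 comparisons and that of HFD-AOS use the same 3 HFD libraries, so their estimates are not independent and are given side by side only. HFD over control uses these HFD libraries too, and it shares its 3 control libraries with AOS over control. The difference of AOS effects, given below, draws on both sets. A gene named in several of these comparisons therefore rests in part on the same libraries. For HFD-AOSFMT over HFD, 0 members were called, against 0.0229% of all genes, with a lowest adjusted p of 0.377. For HFD-conFMT over HFD, 0 members and 0 of all genes were called, with a lowest adjusted p of 0.27. Members at an unadjusted p under 0.05 numbered 3 in HFD-AOSFMT over HFD (9.82% of all genes, 4.59% with lower and 5.23% with higher estimates) and 6 in HFD-conFMT over HFD (12.3% of all genes, 5.26% with lower and 7% with higher estimates), and all 9 estimates were below 0. Estimates were below 0 for 21 members in HFD-AOSFMT over HFD (52.6% of all genes) and for 22 in HFD-conFMT over HFD (50.8% of all genes). The median over members was -0.076 for HFD-AOSFMT and -0.069 for HFD-conFMT, where the medians of all genes were -0.006 and -0.002. Without HFD replicate 2 the members' medians were -0.035 for HFD-AOSFMT and -0.044 for HFD-conFMT, and without HFD-conFMT replicate 1 it was -0.042 for HFD-conFMT.

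In HFD-AOSFMT over HFD, the values of 7 members lay wholly below those of HFD, as for 8.88% of all genes, and 0 wholly above, against 8.34%. They were Adam5, Adam3, Adam32, Adam20, Adam39, Adam30 and Adam17. Adam20 averaged 30.6 ± 0.664 FPKM in HFD-AOSFMT and 34.0 ± 1.49 in HFD, a log2 fold change of -0.15 with a standard error of 0.0468 (limma, adjusted p = 0.377). Adam17, the enzyme that releases tumour necrosis factor and ligands of the epidermal growth factor receptor, was at 3.63, 3.81 and 3.66 FPKM in HFD-AOSFMT, 3.78, 3.67 and 4.15 in HFD-conFMT, 3.80, 3.68 and 3.74 in HFD-AOS, 4.0, 4.73 and 4.12 in HFD, 3.88, 3.90 and 4.03 in AOS, and 4.40, 4.61 and 4.56 FPKM in control. HFD replicate 2 was the highest of the 18 libraries, the control libraries came next with HFD replicate 3 and HFD-conFMT replicate 3 below them, and all HFD-AOSFMT and HFD-AOS libraries were at or under 3.81 FPKM. Its mean was 3.70 ± 0.0964 FPKM in HFD-AOSFMT and 4.28 ± 0.391 in HFD, a log2 fold change of -0.17 with a standard error of 0.0585 (limma, adjusted p = 0.396), which was -0.107 without HFD replicate 2.

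In HFD-conFMT over HFD, 8 members lay wholly below HFD, as for 9.83% of all genes, and 0 wholly above, against 10.3%. They were Adam5, Adam32, Adam4, Adam24, Adam39, Adam26a, Adam20 and Adam9. Adam24, also called testase 1 and known in mice for a part in the block to polyspermy, was at 53.1, 51.1 and 49.9 FPKM in HFD-AOSFMT, 49.02, 47.9 and 51.1 in HFD-conFMT, 52.0, 59.2 and 48.2 in HFD-AOS, 56.7, 60.7 and 52.5 in HFD, 47.3, 49.7 and 48.7 in AOS, and 53.3, 56.8 and 56.4 FPKM in control. All HFD-conFMT and AOS libraries lay below all HFD and control libraries, while HFD-AOS spanned both. Adam24 averaged 49.3 ± 1.62 FPKM in HFD-conFMT and 56.6 ± 4.06 in HFD, a log2 fold change of -0.19 with a standard error of 0.0646 (limma, adjusted p = 0.27). Adam9, a widely expressed protease, was at 3.86, 4.47 and 4.15 FPKM in HFD-AOSFMT, 3.81, 3.86 and 4.02 in HFD-conFMT, 4.13, 3.82 and 4.31 in HFD-AOS, 4.43, 4.61 and 4.46 in HFD, 3.85, 4.21 and 4.17 in AOS, and 4.42, 4.83 and 4.38 FPKM in control. The 3 HFD-conFMT libraries were below the 3 HFD libraries, and the mean was 3.90 ± 0.11 FPKM in HFD-conFMT and 4.50 ± 0.0964 in HFD, a log2 fold change of -0.17 with a standard error of 0.0598 (limma, adjusted p = 0.303). Spermatocyte markers had 5 of 5 estimates below 0 in both comparisons, with medians of -0.074 in HFD-AOSFMT over HFD and -0.115 in HFD-conFMT over HFD. Round spermatid markers also had 5 of 5 below 0 in both, with medians of -0.057 and -0.049 in that order. Elongating spermatid markers had 5 of 5 above 0 in both, with medians of 0.074 and 0.183. Of these lists 0 markers were called, and their part in the ADAM estimates was not tested.

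Between HFD-AOSFMT and HFD-conFMT, 0 members were called, against 0.00763% of all genes, and 0 had an unadjusted p under 0.05, against 3.12% of all genes (1.87% with lower and 1.25% with higher estimates). Estimates were below 0 for 12 of 27 members and 52.9% of all genes, and ran between -0.09 and 0.09, with a median of 0.004 over members and -0.005 over all genes. Adam30, a testis-specific member with the zinc site, had the smallest p of the family in this comparison. It was at 22.1, 22.4 and 22.7 FPKM in HFD-AOSFMT, 24.4, 24.4 and 23.1 in HFD-conFMT, 24.4, 24.6 and 22.8 in HFD-AOS, 25.7, 23.1 and 23.9 in HFD, 22.4, 24.2 and 24.8 in AOS, and 25.6, 24.2 and 25.8 FPKM in control. The 3 HFD-AOSFMT libraries lay below the 3 HFD-conFMT libraries, with means of 22.4 ± 0.272 FPKM in HFD-AOSFMT and 24.0 ± 0.754 in HFD-conFMT, a log2 fold change of -0.09 with a standard error of 0.0501 (limma, adjusted p = 1). Adam10 was next, at 5.81 ± 0.159 FPKM in HFD-AOSFMT and 5.48 ± 0.173 in HFD-conFMT, a log2 fold change of 0.07 (limma, adjusted p = 1), and its groups overlap. Values did not overlap for 3 members lower in HFD-AOSFMT, Adam18, Adam30 and Adam32, against 5.39% of all genes, and for 1 higher, Adam26a, against 4.68% of all genes.

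**Figure D2:**
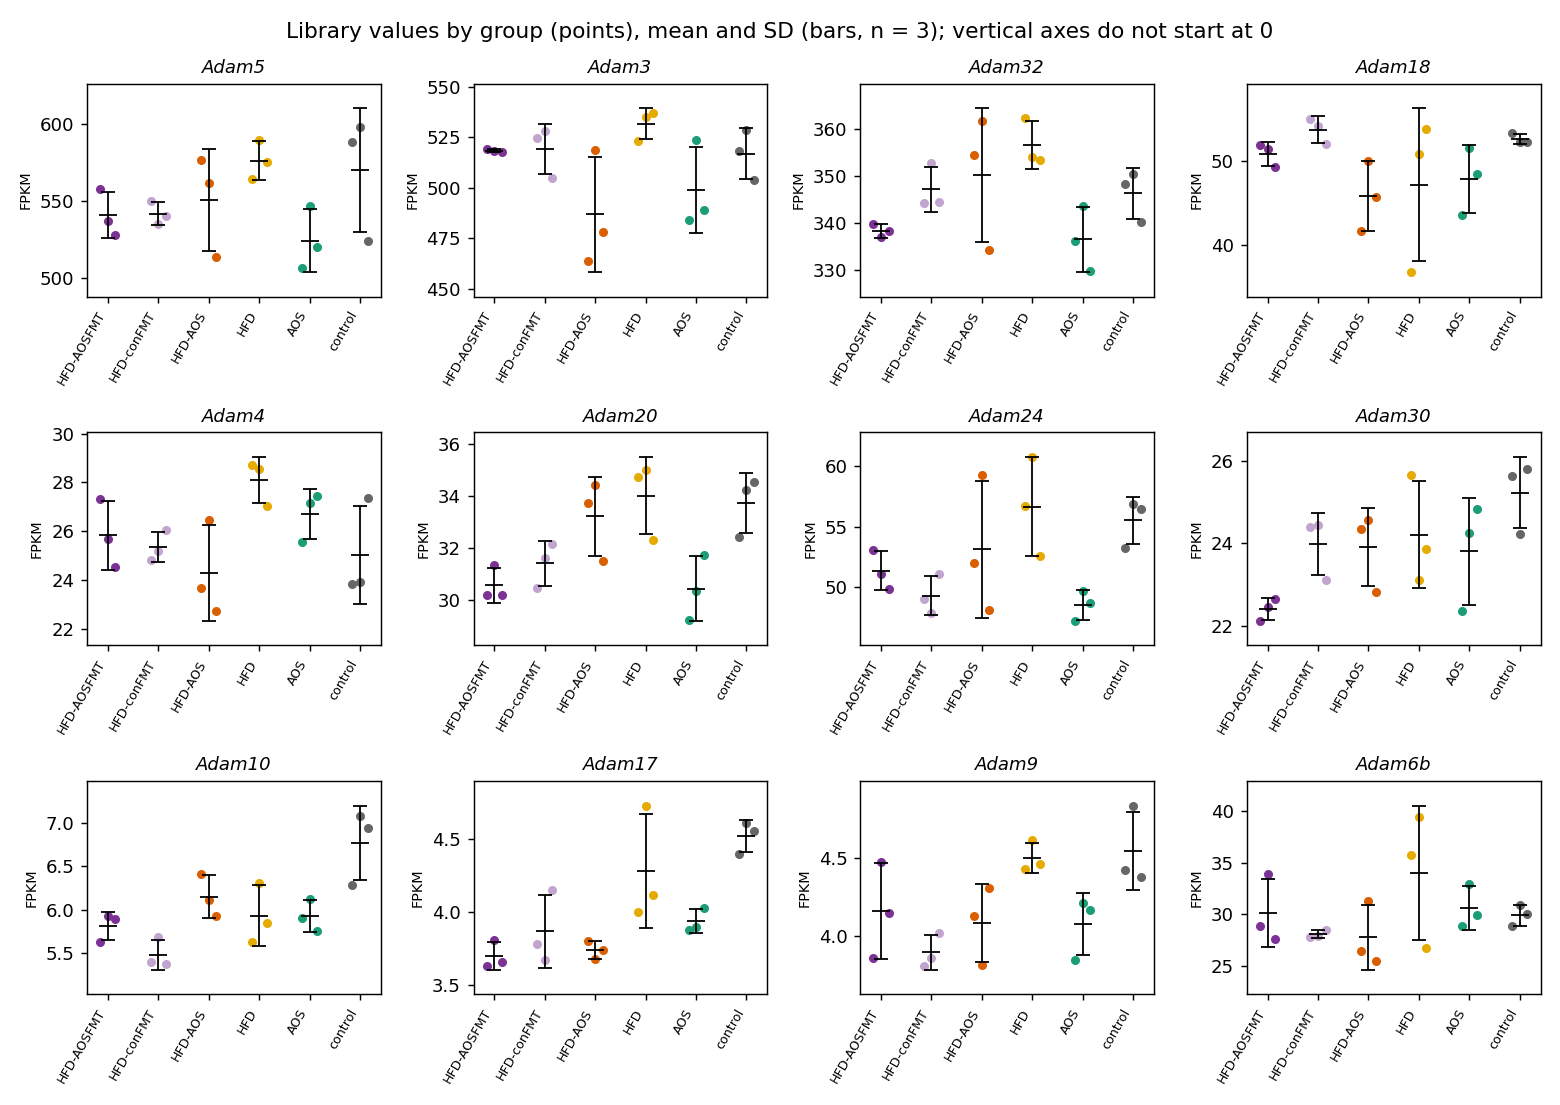
FPKM (y, not starting at 0) of 12 ADAM genes by group (x), with 1 point per library and bars for the mean and SD (n = 3). Adam17 lies between 3.63 and 4.73 FPKM and Adam10 between 5.37 and 7.08 FPKM with control highest on average for both, while Adam18 has a low library at 36.8 FPKM in HFD.

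**Figure D3:**
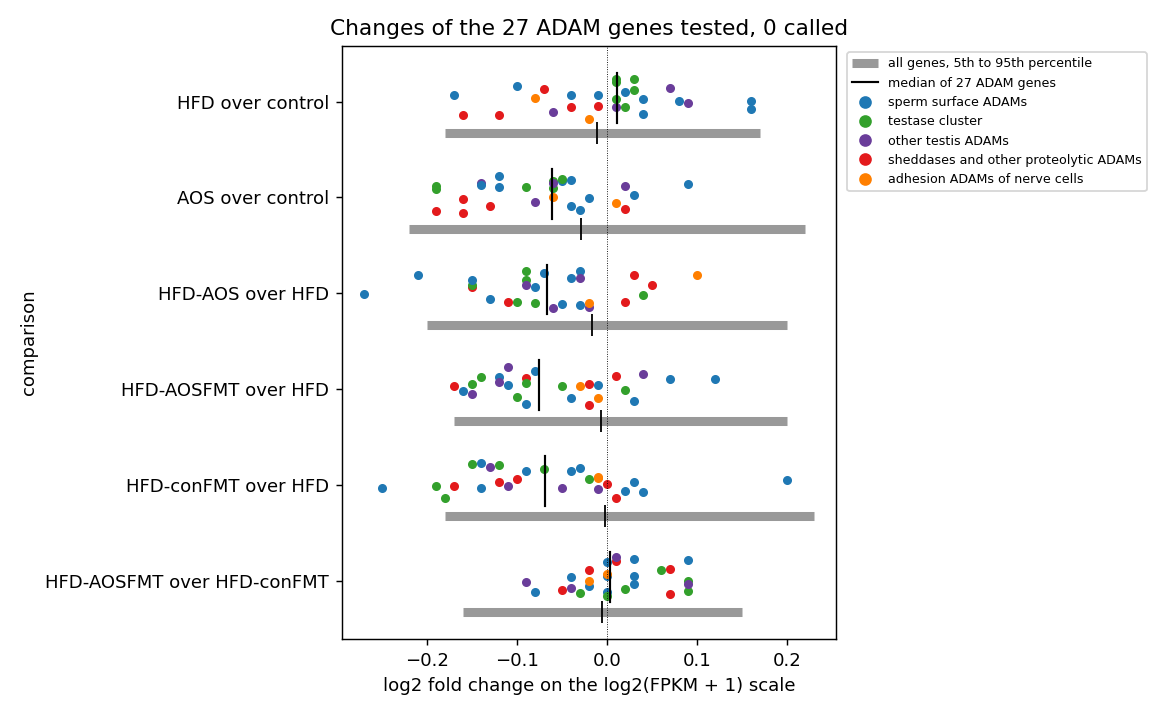
Log2 fold change on the log2(FPKM + 1) scale (x) of the 27 tested ADAM genes in the 6 comparisons (y), points coloured by role, with a black tick at the median of the 27 genes and a grey bar from the 5th to the 95th percentile of all genes with its own median tick. The ADAM medians are -0.061 in AOS over control and between -0.067 and -0.076 in the 3 comparisons with HFD, and most points lie inside the grey bars.

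Whether the AOS effect differed with and without the diet was tested as a difference of effects, HFD-AOS minus HFD less AOS minus control. No member was called (0 by limma, lowest adjusted p = 0.608; 0 of all genes were called), and 2 had an unadjusted p under 0.05, against 6.86% of all genes (3.24% below 0 and 3.62% above 0). They were Adam4, with a difference of -0.30 and a standard error of 0.0891, and Adam10, with a difference of 0.21 and a standard error of 0.0784 (limma, adjusted p = 0.608 and 0.703). For Adam4 the estimate was -0.21 in HFD-AOS over HFD and 0.09 in AOS over control, and for Adam10 0.05 and -0.16 in the same order. Among the 5 tested sheddases and other proteolytic ADAMs the difference had a median of 0.013, being 0.21 for Adam10 and Adam15, 0.01 for Adam9 and Adam17, and 0.00 for Adam8.

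An F test over the 6 group means called 0 members, with a lowest adjusted p of 0.15, against 0.328% of all genes. The 4 members of smallest p were Adam17, Adam10, Adam20 and Adam24, with unadjusted p of 0.00664, 0.00712, 0.00992 and 0.0221 from limma's moderated F, and 18% of all genes were under 0.05. Over the 6 pairwise comparisons the 95% intervals of the members had half-widths of 0.07 to 0.24 on the log2 scale, with a median of 0.13. A difference of 0.5 on the log2(FPKM + 1) scale, in either direction, was outside the interval for all 27 members in each pairwise comparison, except that for Adam6b in HFD-AOS over HFD. That scale understates changes of low members, such as Adam8 at a mean of 1.18 FPKM, so larger changes in their FPKM are not excluded.

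By group mean, 13 of the 27 members were highest in HFD and 0 were lowest there, where 14.1% and 12.6% of all genes tested were. Without HFD replicate 2 the number highest in HFD was 7, beside 12.6% of all genes, an alternative chosen after seeing the data. In control, 6 members were highest and 0 lowest, beside 28.5% and 17.2% of all genes, and in HFD-AOS 2 were highest and 11 lowest, beside 16.2% and 25.1% of all genes. Summed over the 32 members the groups were at 2072.9 ± 29.5 FPKM in HFD-AOSFMT, 2078.6 ± 5.2 in HFD-conFMT, 2043.4 ± 90.9 in HFD-AOS, 2160.1 ± 43.1 in HFD, 2022.5 ± 64.1 in AOS, and 2130.4 ± 50.9 FPKM in control (SD, n = 3 each).

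Libraries of 1 group differed in how many members were above their own mean. In HFD replicate 2, 23 of the 27 were above their own mean over the 18 libraries, with a median deviation of 0.09 on the log2 scale, where 57.5% of all genes were above theirs. The part of marker levels in these counts was not tested. The elongating spermatid markers had their lowest median there, at -0.358, and were also low in control replicates 2 and 3, at -0.218 and -0.285, where 22 and 21 members were above their mean. At the other end, 3 members were above their mean in HFD-AOS replicate 3 and 4 in AOS replicate 1, beside 41.4% and 41.8% of all genes, with elongating spermatid medians of 0.085 and 0.035. The spermatocyte markers had medians of 0.129 in HFD replicate 2, 0.102 and 0.094 in control replicates 2 and 3, -0.111 in HFD-AOS replicate 3 and -0.118 in AOS replicate 1. In AOS replicate 2, 15 members were above their mean, with medians of 0.12 for elongating spermatid and 0.099 for spermatocyte markers. HFD-AOS replicate 2 had 21 members above their mean, with medians of 0.042 for elongating spermatid and 0.03 for spermatocyte markers. Round spermatid medians were 0.16 in HFD-AOS replicate 2, 0.088 in HFD replicate 2, and -0.014 and 0.01 in control replicates 2 and 3. They were -0.057 in HFD-AOS replicate 3, -0.005 in AOS replicate 1 and -0.011 in AOS replicate 2. The testase cluster had a median deviation of 0.178 in HFD replicate 2 and -0.111 in AOS replicate 1. Some genes stood apart in single libraries, with Adam18 at 36.8 FPKM in HFD replicate 1 against 50.8 and 53.8 FPKM in the other two, and Adam2 at 99.1 FPKM in HFD-AOS replicate 1.

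**Figure D4:**
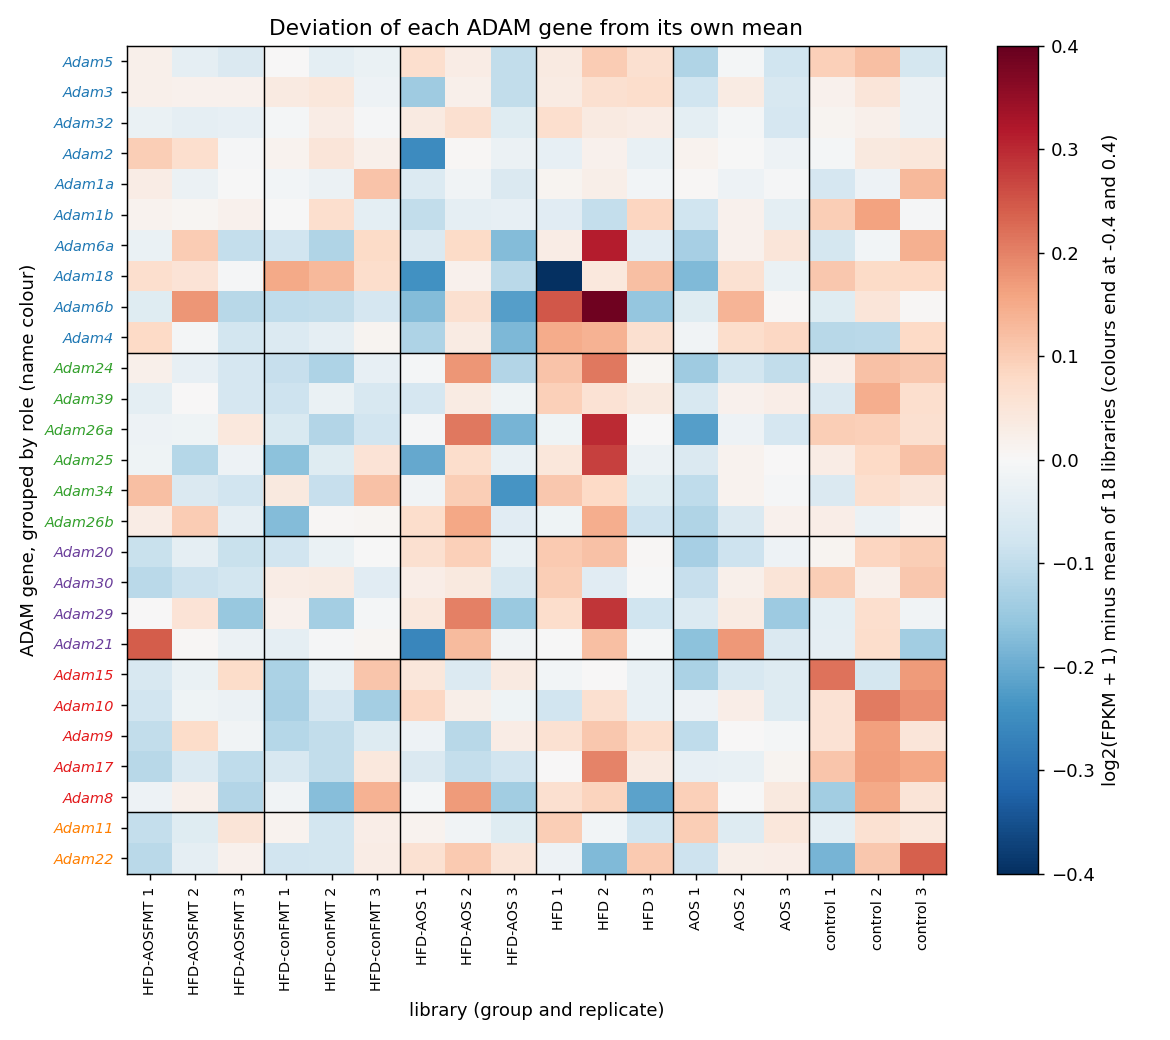
Deviation of log2(FPKM + 1) from the mean of the 18 libraries (colour, ending at -0.4 and 0.4) for the 27 tested ADAM genes (rows, grouped by role) in each library (columns, grouped by condition). HFD replicate 2 is red over most testis members, with 23 of 27 genes above their mean, AOS replicate 1 is blue over most, with 4 of 27 above, and Adam18 is the darkest blue cell in HFD replicate 1.

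The genes that serve or are served by the ADAMs were counted from lists of general knowledge. Of 18 genes for the folding and processing of sperm ADAMs, 17 were tested and 0 were called in any comparison or in the F test, where the lowest adjusted p was 0.135. Ly6k, a surface protein needed for Adam3 display in mice, averaged 173 ± 8.8 FPKM in HFD-AOSFMT, 168 ± 2.63 in HFD-conFMT, 182 ± 13 in HFD-AOS, 162 ± 4.03 in HFD, 167 ± 5.7 in AOS, and 149 ± 10.8 FPKM in control (SD, n = 3 each). The chaperone calnexin, Canx, was at 35.9 ± 1.79 FPKM in HFD-AOSFMT, 37.3 ± 1.37 in HFD-conFMT, 35.2 ± 0.316 in HFD-AOS, 37.0 ± 2.53 in HFD, 36.8 ± 2.7 in AOS, and 41.7 ± 2.07 FPKM in control. Unadjusted p in the F test were 0.00405 for Ly6k and 0.018 for Canx.

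Of 15 partners and inhibitors of the sheddases, 13 were tested and 0 called, with a lowest adjusted p of 0.102 in the F test. That gene was Timp2, an inhibitor of metalloproteases, at 53.4 ± 2.72 FPKM in HFD-AOSFMT, 52.4 ± 1.36 in HFD-conFMT, 48.1 ± 1.82 in HFD-AOS, 57.6 ± 4.17 in HFD, 53.3 ± 4.36 in AOS, and 61.6 ± 1.81 FPKM in control (SD, n = 3 each). Frmd8, which stabilises the iRhom partners of Adam17, was at 17 ± 1.13 FPKM in HFD-AOSFMT, 16.6 ± 0.193 in HFD-conFMT, 14.6 ± 1.46 in HFD-AOS, 15.2 ± 0.299 in HFD, 16.2 ± 0.577 in AOS, and 16.7 ± 0.259 FPKM in control. Control held the highest mean of Timp2 and HFD-AOS the lowest mean of both genes.

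Substrates of the sheddases were mostly low, with 10 of 24 past the filter and 0 called, the lowest adjusted p in the F test being 0.374 for Kitl, the stem cell factor of Sertoli cells. Kitl was at 3.07 ± 0.762 FPKM in HFD-AOSFMT, 3.03 ± 0.586 in HFD-conFMT, 2.27 ± 0.358 in HFD-AOS, 3.22 ± 0.214 in HFD, 2.37 ± 0.607 in AOS, and 3.35 ± 0.856 FPKM in control, and Notch2 had an adjusted p of 0.444. Of the 4 LGI ligands, secreted partners of Adam11, Adam22 and Adam23, Lgi2 and Lgi4 were tested and neither was called (limma F test, adjusted p = 0.593 and 0.943). Of the 19 related ADAMTS proteases, which are secreted, 4 were tested and 0 called, with a lowest adjusted p of 0.213 for Adamts9 and 0.452 for Adamts20.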

How the data were processed

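RNA of testis was sequenced for 18 libraries in 6 groups of 3. The authors deposited 1 table of gene values, and its FPKM unit was inferred from the values, since the deposited table and labels name no unit. Across 3940 low genes the lowest non-zero value falls with transcript length (Spearman's rho -0.423, across genes, which are not replicates), as in a unit divided by length. This fall does not by itself tell FPKM from other units divided by length. Per the submitters' processing notes, Bowtie 0.12.2 and mm10 were used; the counter, annotation, strand setting and read numbers are unstated, so depth is unknown and no counting interval is given. FPKM are scaled to each library's size, so a change in abundant transcripts can shift the others.

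Of 20985 rows, 6 with repeated symbols were left out. Values were taken as log2(FPKM + 1) for genes of mean at least 1 FPKM (13105 genes), so fold changes of low genes are understated. All 6 groups were fitted together in limma 3.58.1 (R 4.3.3) with moderated variances, 12 residual degrees of freedom and Benjamini-Hochberg adjustment over all 13105 genes, at a threshold of 0.05. The fit was tested on simulated data. The simulated shifts were larger than the estimate of any member, so this does not show that shifts of the members' size would be called. Two-sided tests were used for the pairwise comparisons and the difference of AOS effects, and the F test used the upper tail. Same-numbered libraries did not deviate together (median correlation -0.00911 over 45 pairs), so numbers were not used as pairs.

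The members and all gene lists were chosen with earlier results of these data known. Library values are given for the 8 members of highest level, the 2 of smallest p in each comparison and the 4 of smallest p in the F test; of each pathway list the 2 genes of smallest F-test p are named. Adam6b, Adam18 and Adam32 values outside this rule were chosen after they were seen. Zinc sites and positions come from GENCODE vM21 on GRCm38, promoters from RefSeq on GRCm38.p6. Alternatives were a pseudocount of 0.1 or 0.01, no filter or a mean of at least 5 FPKM, quantile normalization, array weights, a replicate block, only the groups compared, and leaving out libraries. Python 3.11.15, pandas 2.3.3 and matplotlib 3.10.9 were used.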

Additional observations from a re-analysis of the deposited data

How the results depend on the processing

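Under every alternative run, 0 ADAM members were called in each of the 6 pairwise comparisons, in the difference of AOS effects and in the F test. The members' median log2 fold change moved with the libraries and with the processing. With single libraries left out it ranged between -0.09 and -0.026 in HFD-AOS over HFD, between -0.099 and -0.035 in HFD-AOSFMT over HFD, and between -0.013 and 0.048 in the difference of AOS effects, against -0.067, -0.076 and 0.008 with all libraries. The ends at -0.026 and 0.048 came without HFD-AOS replicate 3, and the end at -0.035 without HFD replicate 2; the cause was not tested. With array weights the median was -0.032 in HFD-AOS over HFD, -0.042 in HFD-conFMT over HFD (-0.069 with equal weights) and 0.028 in the difference of AOS effects. With no filter it was -0.043 in HFD-AOS over HFD and -0.037 in HFD-conFMT over HFD, where more genes of low level are tested. In HFD over control the median of 0.011 changed sign, to -0.006 with array weights and to between -0.023 and 0.034 with single libraries left out. The sign also changed in the difference of AOS effects, to -0.001 with quantile normalization. In HFD over control, 12 of 27 members had estimates below 0, against 7 of 22 at a mean of at least 5 FPKM, where fewer genes are tested, and 19 of 27 without HFD replicate 2.

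Counts over all genes moved more. The F test called 43 genes, against 1 without control replicate 3 and HFD-conFMT replicate 2 together, 130 with array weights and 145 without HFD-AOS replicate 3. AOS over control called 3 genes, against 0 with quantile normalization and 240 with array weights. HFD-AOSFMT over HFD called 3, against 26 with no filter, and HFD-AOSFMT over HFD-conFMT 1, against 16 with no filter. HFD-AOS over HFD called 0, against 4 without HFD-AOS replicate 3, HFD-conFMT over HFD 0, against 17 without HFD-AOS replicate 1, and HFD over control 0, against 1 with only the groups compared.

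The labels' replicate numbers were tried as a block although they name no shared animal or batch. With the replicate block 0 members were called in every comparison, and the members' median stayed at -0.061 in AOS over control, -0.067 in HFD-AOS over HFD and -0.076 in HFD-AOSFMT over HFD. Over all genes the block gave 20 calls in the F test against 43 without it, and 1 against 3 in HFD-AOSFMT over HFD. Of the same-numbered pairs, 2 of 45 had a correlation over 0.1.

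In an alternative chosen after seeing the data, the members highest in HFD numbered 10 without HFD replicate 1, 7 without HFD replicate 2, 16 without HFD replicate 3 and 10 without control replicate 3 and HFD-conFMT replicate 2 together, against 13. Precision is limited by 3 libraries a group: half-widths of the 95% intervals of members were 0.07 to 0.24 in the pairwise comparisons.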
